A study of Bos taurus with 20 samples.

Results

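WNT ligands, frizzled receptors and the secreted proteins that act on them were followed in skin from the horn-forming part of the head of cattle. A probe was a member when its gene name or its description in the scanner files named a WNT, frizzled or dickkopf gene or held the word wingless or WNT. This took 39 of 21475 probes, 5 by gene name and 34 by description, and none of them was a secreted frizzled-related protein. Where probes shared a gene the brightest was used, which left 36 genes of 14704 named on the array. These were 18 WNT ligands, 10 frizzled receptors, 5 secreted antagonists or their relatives (DKK1, DKK2, DKK3, DKKL1 and WIF1) and 3 proteins first described as WNT1-inducible (CCN4, CCN5 and WISP3). A further 14 core genes that the rule names carried only locus or EST names in the files and were found through their symbols. These core genes were PORCN, LRP5, LRP6, AXIN1, AXIN2, CTNNB1, DVL1, DVL2, DVL3, APC, LEF1, TCF7, TCF7L1 and TCF7L2, and they were kept apart from the 36. The CCN genes and WISP3 were taken for their description and are not components of the pathway.

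Skin with epidermis, dermis and dermal connective tissue came from 4 polled animals, which have no horns, 4 scurred animals, which have small loose horns, and 3 horned animals, all Bos taurus of unstated age and breed. Of these, 1 polled, 3 scurred and 2 horned animals were male. The 20 arrays measured 2 RNAs each, in Cy3 and Cy5, and lay on 5 chips. Chips 1 to 4 each joined a polled, a scurred and a horned animal, and chip 5 set the horn site against skull skin away from it in polled animal 3 and scurred animal 2, both female. Animals are numbered by chip, with horned animal 2 on chips 2 and 4, so polled and scurred animals 2 and 4 were all measured against it. Between 62.24% and 73.75% of probe spots in a channel were well above background, and no member or core probe was saturated. Over the tested probes, scurred animal 1 correlated least with the others, at 0.927 on average against 0.952 to 0.967 for the remaining 10. It lies on chip 1, which has its own scan day. The skin label was borne out by basal keratinocyte and dermal matrix markers, of which 10 of 10 each were tested. The biopsies differed in other tissue. Skeletal muscle markers summed to 18700 to 875000 in polled, 15000 to 204000 in scurred and 2110 to 170000 in horned animals. Upper epidermis markers summed to 8860 to 162000, 3620 to 388000 and 3580 to 18100. All differences are on the log2 scale, and p-values come from limma on 11 animals, with the chip as a block (chips 2 and 4, which share a horned animal, as 1 block) and sex as a term, and the adjustment of Benjamini and Hochberg covers every probe tested. Each animal is 1 biopsy, so fewer cells of a type and less RNA per cell cannot be told apart.

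WNT proteins are lipid-modified signals that act over short distances. PORCN, an enzyme of the endoplasmic reticulum, adds the lipid, and the finished ligand binds a frizzled receptor together with the co-receptor LRP5 or LRP6. In the canonical branch, dishevelled proteins (DVL) then hold off a complex of AXIN, APC and kinases, and beta-catenin (CTNNB1) accumulates and acts with LEF/TCF factors on target genes. Other branches steer cell polarity and calcium without beta-catenin. In skin the pathway is known for starting hair follicles and for driving their growth phase, with WNT10A and WNT10B among the early follicle ligands, and in the skull for bone formation.

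The array reads each gene through a probe of 60 bases, and the probes below carry the results that follow. The first pair lies in sequence that WNT genes share, with the longest stretch found in both probes (10 bases) in capitals. This bears on how far ligand probes can be told apart.
WNT10A: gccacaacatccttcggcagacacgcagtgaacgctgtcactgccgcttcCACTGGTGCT
WNT8B: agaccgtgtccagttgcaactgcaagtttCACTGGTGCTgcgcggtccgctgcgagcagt
Among all pairs of member probes, the longest shared stretch was 11 bases, between WNT6 and DKK2. The next probes, of 2 receptors and an antagonist, are shown whole.
FZD10: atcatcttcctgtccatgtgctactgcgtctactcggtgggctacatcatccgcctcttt
FZD2: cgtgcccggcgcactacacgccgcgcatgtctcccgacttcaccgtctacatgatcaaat
WIF1: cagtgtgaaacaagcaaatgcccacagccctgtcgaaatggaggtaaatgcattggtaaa
For the ligands and the receptor of lowest p, the last 30 bases are shown, from base 31 to base 60. Capitals in WNT11 mark AATAAA, the polyadenylation signal near the end of a messenger RNA.
WNT11: acagctgtttgaAATAAAtgctgagaagcc
WNT10B: tgtactgagacttgttcttggttcttgttt
WNT16: ttatatggatgtgtatttcctgccaaaatg
FZD7: caaggaagccccactttatcacatgtacag
FZD7 second probe: aagacaagtggcctgtcctcactcctgtga
AATAAA or ATTAAA was found on the printed strand of 7 of 36 member probes (19.4%), which were those of WNT5B, WNT11, FZD3, FZD6, DKKL1, DKK3 and CCN5, and in 15.5% of all 21475 probes. DKK2 has 2 probes described as such in the files, and the gene identifier of the dimmer one now belongs to another gene. DKK2 here means the brighter probe.

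Frizzled receptors and antagonists were widely measured, while more than 1 ligand gene in 2 was not. A probe was tested when it was well above background in at least 3 of 11 animals. This held for 24 of 36 members (66.7%) and for 75.9% of all probes, and 21 members and 62.2% of all probes were above background in 11 of 11 animals. Among the ligands it held for 8 of 18 (44.4%). WNT2B, WNT5A, WNT6, WNT7A, WNT10B and WNT11 were above background in 11 of 11 animals, WNT16 in 10 and WNT10A in 7. WNT3 and WNT9B reached it in 2 scurred animals each, and WNT3A and WNT8B in 1. WNT3 was above background on 4 of 8 scurred channels and on none of 12 horned ones. The ratio of the means was at least 1.08-fold, set by the dimmest signal called on those arrays. It came from scurred animals 1 and 2, at log2 7.10 and 6.61. Scurred animals 3 and 4 were at 6.29 and 6.20, beside 6.25 to 6.30 in horned animals. WNT1, WNT4, WNT5B, WNT7B, WNT8A and WNT9A were not well above background in any animal. The untested ligand probes had a median GC content of 57.5% (20% to 68.3%) and the tested ones of 42.5% (31.7% to 60%), beside 43.3% for all probes.

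Receptors contrasted with ligands in this respect. Of the frizzled genes, 9 of 10 were tested, each in 11 of 11 animals, and only FZD5 was not. The 5 antagonists and relatives were above background in 11 of 11 animals as well. CCN5 was so in 11 and CCN4 in 4, while WISP3 was in none. Of the core genes 13 of 14 were tested, and AXIN2, a target gene that feeds back on the pathway, was above background in 2 animals. Some ligand genes lie side by side in the genome, with no protein-coding gene between them in the RefSeq gene order of ARS-UCD2.0. WNT10B was measured in 11 animals while its neighbour WNT1 was in none, and WNT6 and WNT10A were both tested. In the pairs WNT3 with WNT9B and WNT3A with WNT9A no gene was tested.

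Between polled and horned skin, 0 of 24 tested members passed the threshold of 0.05 on the adjusted p (limma, adjusted p 0.501 to 0.998), as did 0.00613% of all 16309 probes. At an unadjusted p under 0.05 there were 2 members, both higher in polled skin, against 4.69% of all probes in that direction, and 0 lower, against 4.48%. The fitted difference was above 0 for 15 of 24 members and for 51.9% of all probes, and the median over the 24 was 0.103, beside 0.00997 over all probes. Without horned animal 2 that median was −0.0127, and with no sex term it was 0.0746. Horn type and sex overlap here, since the polled and the horned animal differed in sex on every chip but chip 4. Higher in every polled animal were 4 members (DKK1, WIF1, WNT11 and WNT10A), beside 14% of probes, and lower in every one were 3 (DKK2, WNT16 and CCN4), beside 13.1%. WNT10A and CCN4 are among these, although WNT10A was above background in 0 of 3 horned and CCN4 in 0 of 4 polled animals, so that the filter passed each only through the groups where it is high. These counts describe the members and were not tested against other genes.

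**Figure D1:**
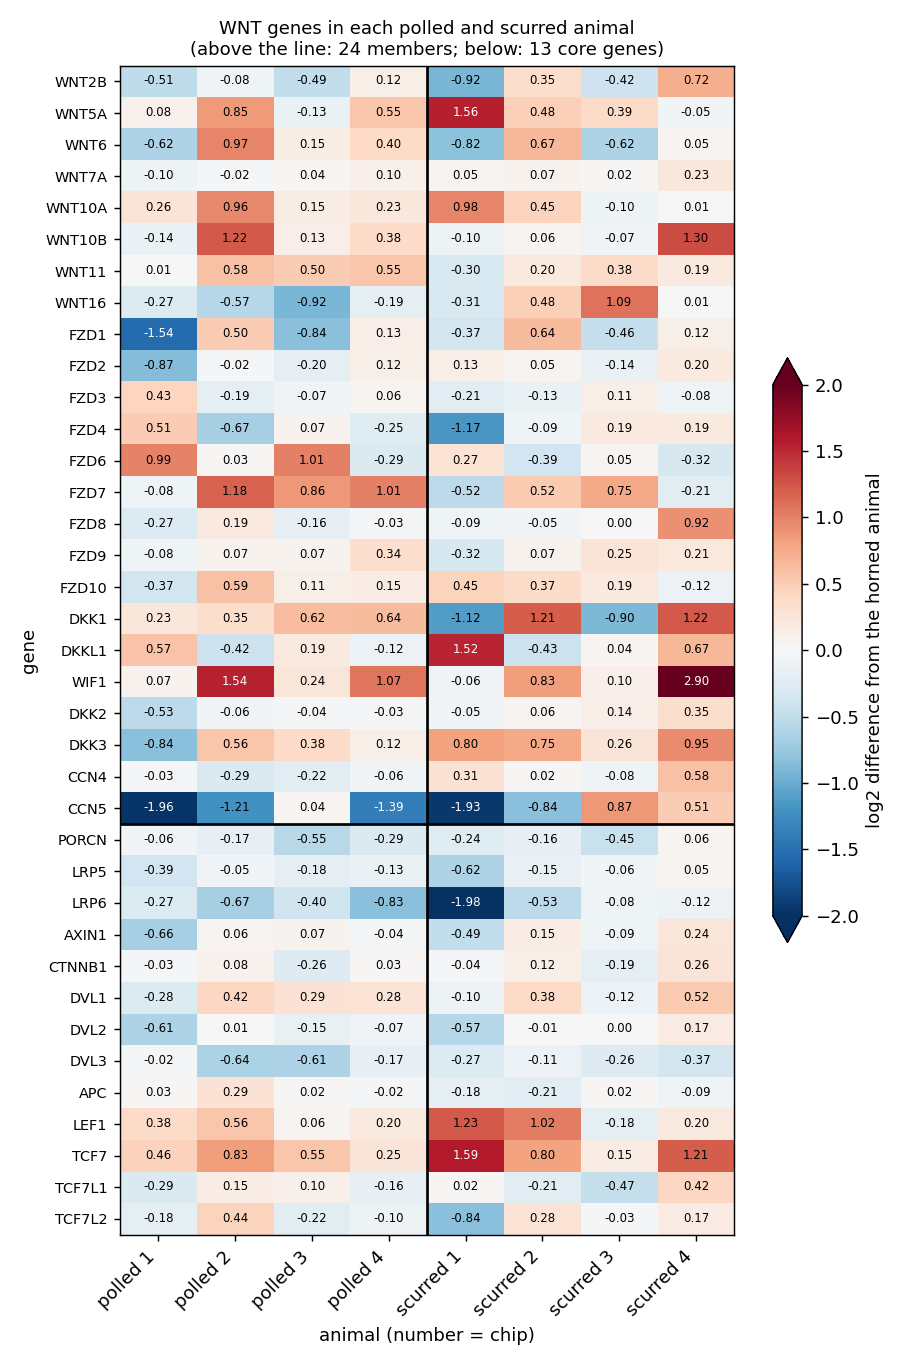
Log2 difference of each polled and scurred animal (columns, numbered by chip) from the horned animal on its chip, for 24 tested members and 13 tested core genes (rows), with the value written in each cell and the colour scale ending at −2 and 2. WIF1 reached 2.90 in scurred 4 and LRP6 −1.98 in scurred 1, CCN5 was below −1 in 3 polled animals and in scurred 1 (−1.93), and CTNNB1 stays between −0.26 and 0.26.

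Of the 8 ligands tested, WNT11 had the lowest p against horned skin. WNT11 is a ligand of the branches without beta-catenin, known from cell movement in the embryo. Its log2 signal was 7.62, 7.61, 7.64 and 7.64 in polled animals 1 to 4, 7.27, 7.22, 7.57 and 7.33 in scurred animals 1 to 4, and 7.66, 7.03 and 7.15 in horned animals 1 to 3. The polled animals lay within a narrow band that 1 horned animal reached as well. Against the horned animal of their chip, polled animals stood at 0.01, 0.58, 0.50 and 0.55, and the fitted difference was 0.42 (SE 0.144, n = 4 and 3, unadjusted p 0.0225, adjusted p 0.501, limma). With the processed signals of the scanner software it was 0.76 (SE 0.302, adjusted p 0.496), and without horned animal 2 it was 0.27 (SE 0.242).

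WNT10B, which promotes hair growth and bone formation, came next at 0.57 (SE 0.211, unadjusted p 0.0297, adjusted p 0.525, limma). With no sex term it was 0.30 (SE 0.338, adjusted p 0.771). Its log2 signal was 7.58, 8.35, 7.80 and 7.74 in polled animals, 7.64, 7.24, 7.52 and 8.71 in scurred animals, and 7.74, 7.28 and 7.66 in horned animals. Polled 2 and scurred 4 stood above all others, and the groups overlapped. Differences from the horned animal were −0.14, 1.22, 0.13 and 0.38 in polled animals and −0.10, 0.06, −0.07 and 1.3 in scurred ones. Hair shaft and inner root sheath markers (9 genes on the array, 9 tested) had median differences of 0.07, 2.15, −0.01 and 1.10 in the same polled animals and 0.72, 0.38, −0.01 and 0.00 in the scurred ones. The hair gene TCHH stood at 3.59 in polled 2 and 2.22 in polled 4, but at −0.07 in scurred 4. Genes of the list did not move together. KRT27 stood at 4.88, 3.25 and 0.12 in these animals, but KRT25 at −1.15, −0.07 and −1.46. In scurred 1, TGM3 stood at 4.59 and KRT27 at 0.06. The summed signal of the list was 4050 to 27000 in polled, 3400 to 73400 in scurred and 4620 to 6170 in horned animals, and none of its markers was below background in all animals. Its part in the WNT10B values was not tested.

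WNT10A, whose loss disturbs teeth, hair and sweat glands, is read near the limit of the array. It was well above background on 11 of 12 channels of polled animals, 5 of 8 of scurred animals and 2 of 12 of horned animals. The log2 signal was 6.68, 7.24, 6.69 and 6.72 in polled animals, 7.30, 6.71, 6.41 and 6.46 in scurred animals, and 6.36, 6.30 and 6.5 in horned animals. Every polled animal thus lay above every horned one, as for 9.29% of probes with groups apart in either direction. No horned animal was above background, so the probe was tested only through the other groups. The mean polled level is given as at least 1.28-fold higher, against the dimmest signal called on the horned channels (log2 means 6.83 and 6.39). This bound is for the mean only, and polled animal 2 stood highest at 7.24. The remaining polled animals, at 6.68 to 6.72, lay nearer the limit of 6.47 used for it. Horned animal 3, at 6.5, lay above that limit. The fitted value of 0.48 (SE 0.286, unadjusted p 0.135, adjusted p 0.622, limma), from 0.26, 0.96, 0.15 and 0.23, is no measured size. It was 0.11 (SE 0.319) without polled animal 2, 0.06 (SE 0.415) without chip 2 and 1.82 (SE 0.87) with the processed signals.

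WNT16, a ligand of bone and epidermis, pointed the other way. Its log2 signal was 6.56, 6.46, 6.31 and 6.65 in polled animals, below the 6.85, 6.96 and 7.33 of the horned animals. Scurred animals spread on both sides at 6.56, 7.5, 8.39 and 6.83. Polled and horned levels lay apart in either direction for 9.29% of probes. The polled signal was near background, well above it on 8 of 12 polled channels and 12 of 12 horned ones. Of the polled animals 3 were above background, so the size of the polled difference is uncertain. Differences from the horned animal were −0.27, −0.57, −0.92 and −0.19 in polled animals, for a fitted value of −0.54 (SE 0.364, unadjusted p 0.184, adjusted p 0.667, limma). In the processed signals this was −1.94 (SE 0.87, adjusted p 0.529), and without polled animal 3 it was −0.29 (SE 0.243).

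**Figure D2:**
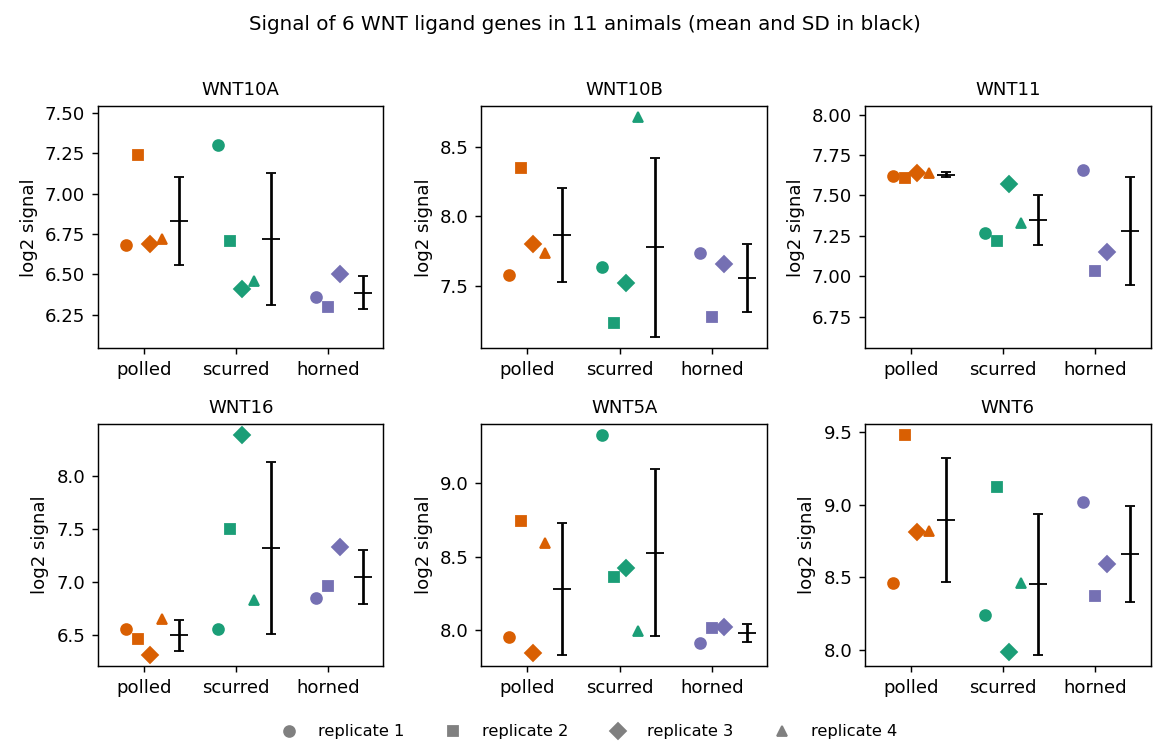
Log2 signal (vertical axes, one range per gene) of 6 WNT ligand probes in 4 polled, 4 scurred and 3 horned animals, with the replicate given by the marker and the mean and SD in black. WNT16 was between 6.31 and 6.65 in polled animals, near background and below all horned animals, beside 9.29% of probes with these groups apart. WNT11 was between 7.61 and 7.64 in polled animals. The scurred animals spread widest for WNT16, WNT10B and WNT5A.

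Of the other ligands, WNT5A, the main ligand of the beta-catenin-independent branches in skin, had the largest fitted value. It was higher in 3 of 4 polled animals (−0.13 to 0.85), at 0.46 (SE 0.386, adjusted p 0.743, limma). It was 0.02 (SE 0.671) without chip 2 and 0.12 (SE 0.52) without polled animal 2. Its second probe, above background in 7 of 11 animals, gave 0.03 (SE 0.136). WNT6 was at 0.18 (SE 0.312), from −0.62 in polled 1 to 0.97 in polled 2. WNT2B was at −0.31 (SE 0.282), lower in 3 of 4 polled animals. WNT7A, of the epidermis, was between −0.10 and 0.10 in the polled animals.

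Among receptors FZD7 had the lowest p. FZD7 serves both branches and is known from stem cells of several epithelia. Its log2 signal was 10.65, 11.71, 10.92 and 11.49 in polled animals, 10.29, 11.01, 10.83 and 10.20 in scurred animals, and 10.71, 10.44 and 10.03 in horned animals. Polled animals 2, 3 and 4 lay above all horned animals and polled 1 did not. The differences were −0.08, 1.18, 0.86 and 1.01, with a fitted value of 0.74 (SE 0.316, unadjusted p 0.0515, adjusted p 0.545, limma). The second FZD7 probe, found by symbol and shown above, gave 0.58 (SE 0.242, unadjusted p 0.0494, adjusted p 0.544) and was higher in 4 of 4. FZD8, the other receptor with a second probe, was at 0.01 and −0.11.

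FZD6, a receptor that orients hairs across the skin, was at 0.44 (SE 0.225, unadjusted p 0.0924, adjusted p 0.581, limma), with 0.99 and 1.01 in polled animals 1 and 3 but 0.03 and −0.29 in 2 and 4. Without chip 2 it was −0.03 (SE 0.328). FZD1 was at −0.42 (SE 0.311), from −1.54 in polled 1 to 0.50 in polled 2. Of the other 6 tested receptors, FZD2 was at −0.21, FZD3 at 0.03, FZD4 at −0.22, FZD8 at 0.01, FZD9 at 0.08 and FZD10 at 0.18, with SEs from 0.147 to 0.393. The co-receptor LRP6 was lower in 4 of 4 polled animals (−0.83 to −0.27), at −0.60 (SE 0.446, adjusted p 0.699), and LRP5 was lower in 4 of 4 too, at −0.18 (SE 0.133, adjusted p 0.701).

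WIF1, which binds WNT proteins outside the cell, had the largest fitted value above 0 among the members, 0.86 (SE 0.47, unadjusted p 0.111, adjusted p 0.602, limma). Its log2 signal was 6.85, 8.49, 7.03 and 8.26 in polled animals, 6.81, 7.80, 6.93 and 10.27 in scurred animals, and 6.86, 7.09 and 6.82 in horned animals. High values came from polled 2 and 4 and scurred 2 and 4, all measured against horned animal 2, and the groups overlapped. Hair shaft markers were high in polled 2 and 4 as well, at the median differences given above for WNT10B. The cartilage and bone markers (8 on the array, 6 tested), by contrast, had a summed signal of 42680 in scurred 4 against 4336 to 8189 in the other 10 animals, with SP7 not above background in any animal. What these cells contribute to the WIF1 signal was not tested. Without scurred 4 the polled value was 0.78 (SE 0.182, adjusted p 0.22), without polled 2 it was 1.57 (SE 0.536, adjusted p 1), without horned 2 it was 0.35 (SE 0.593) and with no sex term 0.54 (SE 0.526).

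The dickkopf genes, of whose proteins DKK1 and DKK2 bind LRP5 and LRP6, had fitted values between −0.14 and 0.20. DKK1 was at 0.20 (SE 0.529, adjusted p 0.936, limma), between 0.23 and 0.64 in the 4 polled animals. This fit was imprecise, at −0.77 without horned animal 2 and 1.31 without chip 2. DKK2 was at −0.14 (SE 0.125, adjusted p 0.755) and DKK3, which does not bind these co-receptors in the same way, at 0.13 (SE 0.295, adjusted p 0.926). DKKL1, a relative known from testis, was at 0.16 (SE 0.382, adjusted p 0.93). CCN5, a matrix-associated protein of fibroblasts, had the value farthest from 0, −1.05 (SE 0.556, unadjusted p 0.101, adjusted p 0.59). It was −1.96, −1.21 and −1.39 in polled animals 1, 2 and 4 but 0.04 in polled 3. The fit ran from −0.59 (without horned animal 1) to −1.61 (without chip 3). Dermal fibroblast and matrix markers (10 of 10 tested) had median differences of −0.68, −1.62, −0.40 and −0.28 in polled animals 1 to 4, and their summed signal was 92100 to 265000 in polled and 336000 to 351000 in horned animals. Skeletal muscle markers (9 on the array, 9 tested) had median differences of 5.12, −0.85, 1.61 and 2.18 in the same polled animals. The part of either list in the CCN5 values was not tested.

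**Figure D3:**
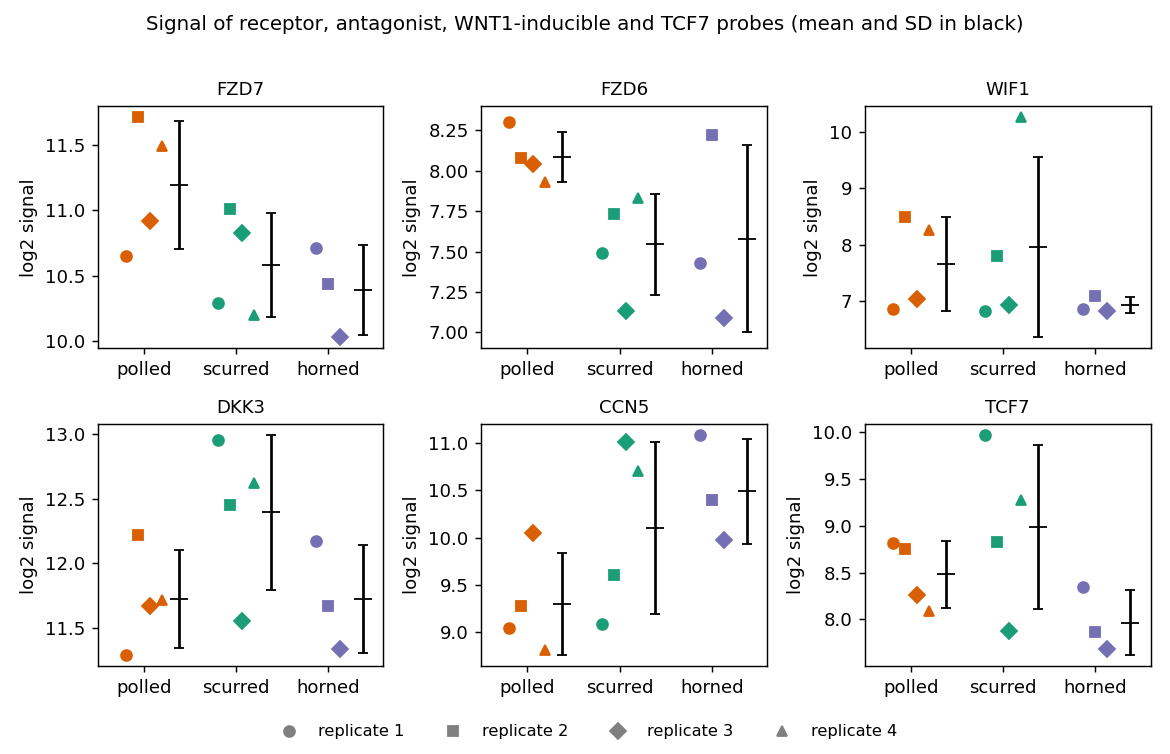
Log2 signal (vertical axes, one range per gene) of FZD7, FZD6, WIF1, DKK3, CCN5 and TCF7 in 4 polled, 4 scurred and 3 horned animals, with mean and SD in black. FZD7 was between 10.65 and 11.71 in polled animals and 10.03 and 10.71 in horned ones, and scurred 4 stood at 10.27 for WIF1.

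Of the 13 core genes tested, 0 were higher and 1 was lower at an unadjusted p under 0.05, beside 4.69% and 4.48% of probes. CTNNB1, beta-catenin itself, was 10.63 to 10.71 in polled animals and 10.68 to 10.91 in horned ones, with a difference of −0.04 (SE 0.108, adjusted p 0.928, limma). APC was at 0.14 (SE 0.103, adjusted p 0.703) and AXIN1 at −0.15 (SE 0.166, adjusted p 0.808). PORCN was lower in 4 of 4 polled animals, at −0.26 (SE 0.137, adjusted p 0.587), and its second probe, above background in only 3 of 11 animals, gave 0.00 (SE 0.0926). DVL3 was lower in 4 of 4 (−0.64 to −0.02), at −0.44 (SE 0.153, unadjusted p 0.0244, adjusted p 0.509). Its second probe gave −0.13 (SE 0.167). DVL1 was at 0.17 and DVL2 at −0.19.

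Of the LEF/TCF factors, TCF7 had the lowest p. It was higher in 4 of 4 polled animals, at 0.46, 0.83, 0.55 and 0.25, with a fitted value of 0.61 (SE 0.3, unadjusted p 0.0838, adjusted p 0.574, limma). Basal keratinocyte markers (10 of 10 tested) were higher in the same 4 animals, with median differences of 0.53, 1.31, 1.12 and 0.83, and none was below background in all animals. T lymphocyte markers, listed because TCF7 is also a T-cell factor, had median differences of 0.71, 0.85, 0.62 and 0.52 (7 on the array, 5 tested, with CD3D and CD5 not above background in any animal). The tested markers did not move together. CD3E was at 0.62 to 0.90, CD3G at 0.65 to 0.93 and ZAP70 at 0.52 to 1.82. CD2, at −0.07 to 0.12, and LCK, at −0.20 to 0.17, lay near 0. The summed signals of the T-cell list were 940 to 1610 in polled and 725 to 957 in horned animals, and the part of either cell type was not tested. LEF1, known from hair follicles, was at 0.26 (SE 0.313, adjusted p 0.827), TCF7L1 at 0.01 (SE 0.209) and TCF7L2 at −0.02 (SE 0.235).

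The comparison of scurred with horned skin uses the horned animals a second time. Both comparisons share the horned animals, so their values are set side by side and not counted as independent. No member passed, 0 of 24 (limma, adjusted p 1 for all), beside 0% of all probes. At an unadjusted p under 0.05 there were 0 members, beside 1.56% of probes that were higher and 2.2% that were lower, 3.76% in all. The fitted difference was above 0 for 16 of 24 members and 51.6% of probes, with medians of 0.0776 and 0.006. Higher in every scurred animal were 2 members, DKK3 and WNT7A, beside 8.49% of probes, and lower in every one were 0, beside 9.59%. No member and 1 core gene, PORCN, had levels that did not overlap, beside 4.49% of probes. DKK3 had the lowest p, at 0.59 (SE 0.28, unadjusted p 0.0731, adjusted p 1). It was higher in 4 of 4 scurred animals, at 0.80, 0.75, 0.26 and 0.95, while polled animals were at −0.84, 0.56, 0.38 and 0.12. Its second probe gave 0.01 (SE 0.149), but was above background in only 5 of 11 animals. Without scurred animal 1, DKK3 was at 0.39 (SE 0.289).

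For several members the scurred animal farthest from horned skin was animal 1. WNT5A was at 1.56 there and at 0.48, 0.39 and −0.05 in scurred animals 2 to 4, for a fit of 0.56 (SE 0.368, adjusted p 1, limma). Without that animal it was 0.16 (SE 0.268). DKKL1 was at 1.52, −0.43, 0.04 and 0.67, with a fit of 0.53 (SE 0.363), or 0.24 (SE 0.354) without the animal. WNT10A was at 0.98, 0.45, −0.10 and 0.01, with a fit of 0.30 (SE 0.272), or 0.04 (SE 0.231) without it. Since no horned animal was above background for WNT10A, the mean scurred level is given as at least 1.19-fold higher (log2 means 6.72 and 6.39). This bound is for the mean only. Scurred animal 1 stood at 7.30, while scurred animals 3 and 4, at 6.41 and 6.46, lay under the limit of 6.47 used for it. In the opposite direction, LRP6 was at −1.98, −0.53, −0.08 and −0.12, for −0.68 (SE 0.424), or −0.14 (SE 0.179) without scurred animal 1.

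Marker lists moved with scurred animal 1 too. Basal keratinocyte markers had a median difference of 1.70 there, against −0.46 to 1.0 in the other scurred animals, and the upper epidermis list 5.18, against −0.58 to 3.77. Summed signals of the 10 basal markers ran from 52100 to 702000 in scurred and from 52400 to 78300 in horned animals. The part of epidermis in these values was not tested.

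WIF1 in scurred skin rested on scurred animal 4, at −0.06, 0.83, 0.10 and 2.90. The fit of 0.65 (SE 0.447, adjusted p 1, limma) was 0.29 (SE 0.182, adjusted p 0.771) without that animal. WNT16 was at −0.31, 0.48, 1.09 and 0.01, with a fit of 0.33 (SE 0.346), and at −0.04 (SE 0.228) without scurred animal 3. WNT10B was at 0.11 (SE 0.201) with a single high animal, and at −0.03 (SE 0.131) without it. CCN4, a relative of CCN5, was at 0.19 (SE 0.167) and above background in 3 scurred animals, 1 horned and 0 polled animals. WNT6, a ligand of epithelia, was at −0.33 (SE 0.297), and −0.82, 0.67, −0.62 and 0.05 per animal. DKK1 swung from −1.12 to 1.22 around a fit of 0.00 (SE 0.504), high in scurred animals 2 and 4 and low in 1 and 3.

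TCF7 was higher in 4 of 4 scurred animals as well, at 1.59, 0.80, 0.15 and 1.21. The fit was 0.90 (SE 0.285, unadjusted p 0.0166, adjusted p 1, limma), and 0.65 (SE 0.263) without scurred animal 1. In scurred animal 4 TCF7 was at 1.21 where the basal keratinocyte list was at −0.46. The median of the T lymphocyte list was above 0 in 4 of 4 scurred animals, at 0.62, 0.99, 0.35 and 0.57. CD3E, CD3G and ZAP70 were higher in each, while CD2 (0.04 to 0.16) and LCK (−0.05 to 0.19) lay near 0. Summed signals of the list were 1080 to 1410, and its part was not tested. LEF1 was at 1.23, 1.02, −0.18 and 0.20, with a fit of 0.56 (SE 0.297), or 0.31 (SE 0.28) without scurred animal 1. CTNNB1 was at 0.00 (SE 0.102), APC at −0.14 (SE 0.0979), AXIN1 at −0.11 (SE 0.158), LRP5 at −0.24 (SE 0.127), PORCN at −0.23 (SE 0.131), TCF7L1 at −0.12 (SE 0.199) and TCF7L2 at −0.19 (SE 0.223).

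**Figure D4:**
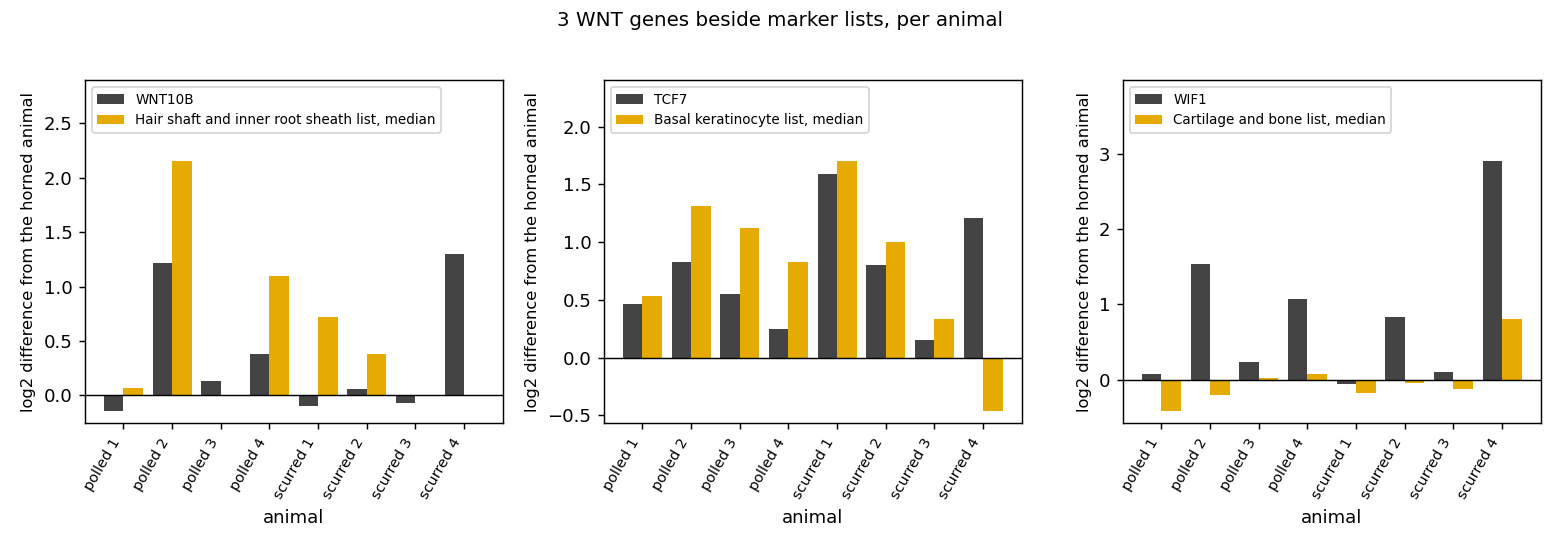
Log2 difference from the horned animal (vertical axes) in 4 polled and 4 scurred animals, for a WNT gene (dark bars) and the median of a marker list (yellow bars). Both bars are high for WNT10B and hair markers in polled 2 (1.22 and 2.15) and for TCF7 and basal keratinocyte markers in scurred 1 (1.59 and 1.70), while WNT10B (1.3), TCF7 (1.21) and WIF1 (2.90) were high in scurred 4, where the paired lists were at 0.00, −0.46 and 0.81.

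Set directly against polled skin, scurred skin again had 0 of 24 members past the threshold (limma, adjusted p 0.811 to 1), beside 0% of all probes. At an unadjusted p under 0.05, 1 member was higher, beside 2.93% of probes, and 1 was lower, beside 3.15%, or 6.08% in all. The fitted difference was above 0 for 14 of 24 members and for 48.6% of probes. The one that was lower was WNT11, at −0.34 (SE 0.139, unadjusted p 0.0438, adjusted p 0.811), with −0.31, −0.38, −0.12 and −0.35 on chips 1 to 4. Its levels did not overlap between the groups, 7.22 to 7.57 in scurred and 7.61 to 7.64 in polled animals, as for 2.77% of probes. The one that was higher was WNT16, at 0.86 (SE 0.353, unadjusted p 0.0446, adjusted p 0.811), with −0.03, 1.05, 2.01 and 0.20 on the 4 chips. The largest value came from chip 3, and without scurred animal 3 the fit was 0.56 (SE 0.223, adjusted p 0.877). With the processed signals WNT16 was at 2.05, and only 8 of 12 polled channels were well above background for it.

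Of the receptors, FZD7 and FZD6 had the lowest p here. FZD7 was at −0.44, −0.66, −0.11 and −1.22 on chips 1 to 4, lower on 4 of 4, with a fit of −0.67 (SE 0.307, unadjusted p 0.0662, adjusted p 0.835, limma). Its second probe gave −0.32 (SE 0.235), and without polled animal 2 FZD7 was at −0.39 (SE 0.462). FZD6 was lower on 4 of 4 as well, at −0.40 (SE 0.218, adjusted p 0.843), but the fit was 0.31 (SE 0.434) without chip 2. Its levels did not overlap, 7.13 to 7.83 in scurred and 7.93 to 8.30 in polled animals, as for 2.77% of probes. Horned animals spread over both ranges, at 7.43, 8.22 and 7.09. WNT6 was lower on 4 of 4 chips (−0.77 to −0.21), at −0.51 (SE 0.303, adjusted p 0.858), and −0.23 without polled animal 2. In all, 4 members were lower on 4 of 4 chips and 4 were higher (CCN5, FZD2, DKK2 and CCN4), beside 9.26% and 9.62% of probes. Here CCN4 was at 0.34 (SE 0.17, adjusted p 0.838) and DKK2 at 0.23 (SE 0.121, adjusted p 0.838). CCN4 was above background in 0 polled animals, so its value is no measured size. As a bound, its mean scurred level was at least 1.22-fold higher (log2 means 6.73 and 6.35). Scurred animal 3, at 6.39, lay under the limit of 6.44 used for it. The fit was −0.05 without polled animal 2 and 1.42 with the processed signals, and that of DKK2 was 0.09 without polled animal 2 and 0.05 with no chip block.

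WNT10B was at −0.47 (SE 0.205, unadjusted p 0.0568, adjusted p 0.834, limma), although chip 4, at 0.91, opposed chip 2, at −1.17. With no sex term it was −0.10 (SE 0.31). CCN5 was higher on 4 of 4 chips (0.04 to 1.9), at 0.68 (SE 0.539, adjusted p 0.881). WNT5A was at 0.10 (SE 0.375), WNT10A at −0.19 (SE 0.277), WIF1 at −0.21 (SE 0.455), DKK1 at −0.20 (SE 0.514) and DKK3 at 0.47 (SE 0.286). Of the core genes, APC had the lowest p, at −0.27 (SE 0.0998, unadjusted p 0.0299, adjusted p 0.785), and −0.06 without chip 2. CTNNB1 was at 0.04 (SE 0.104), AXIN1 at 0.04 (SE 0.161), PORCN at 0.03 (SE 0.133), LRP5 at −0.06 (SE 0.129), LRP6 at −0.09 (SE 0.433), LEF1 at 0.30 (SE 0.303), TCF7 at 0.29 (SE 0.291), TCF7L1 at −0.12 (SE 0.202) and TCF7L2 at −0.17 (SE 0.228). Horn type and sex overlap in this comparison as well, since the polled and the scurred animal differed in sex on each of the 4 chips. The median over members of 0.0672 became 0.135 with no sex term.

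**Figure D5:**
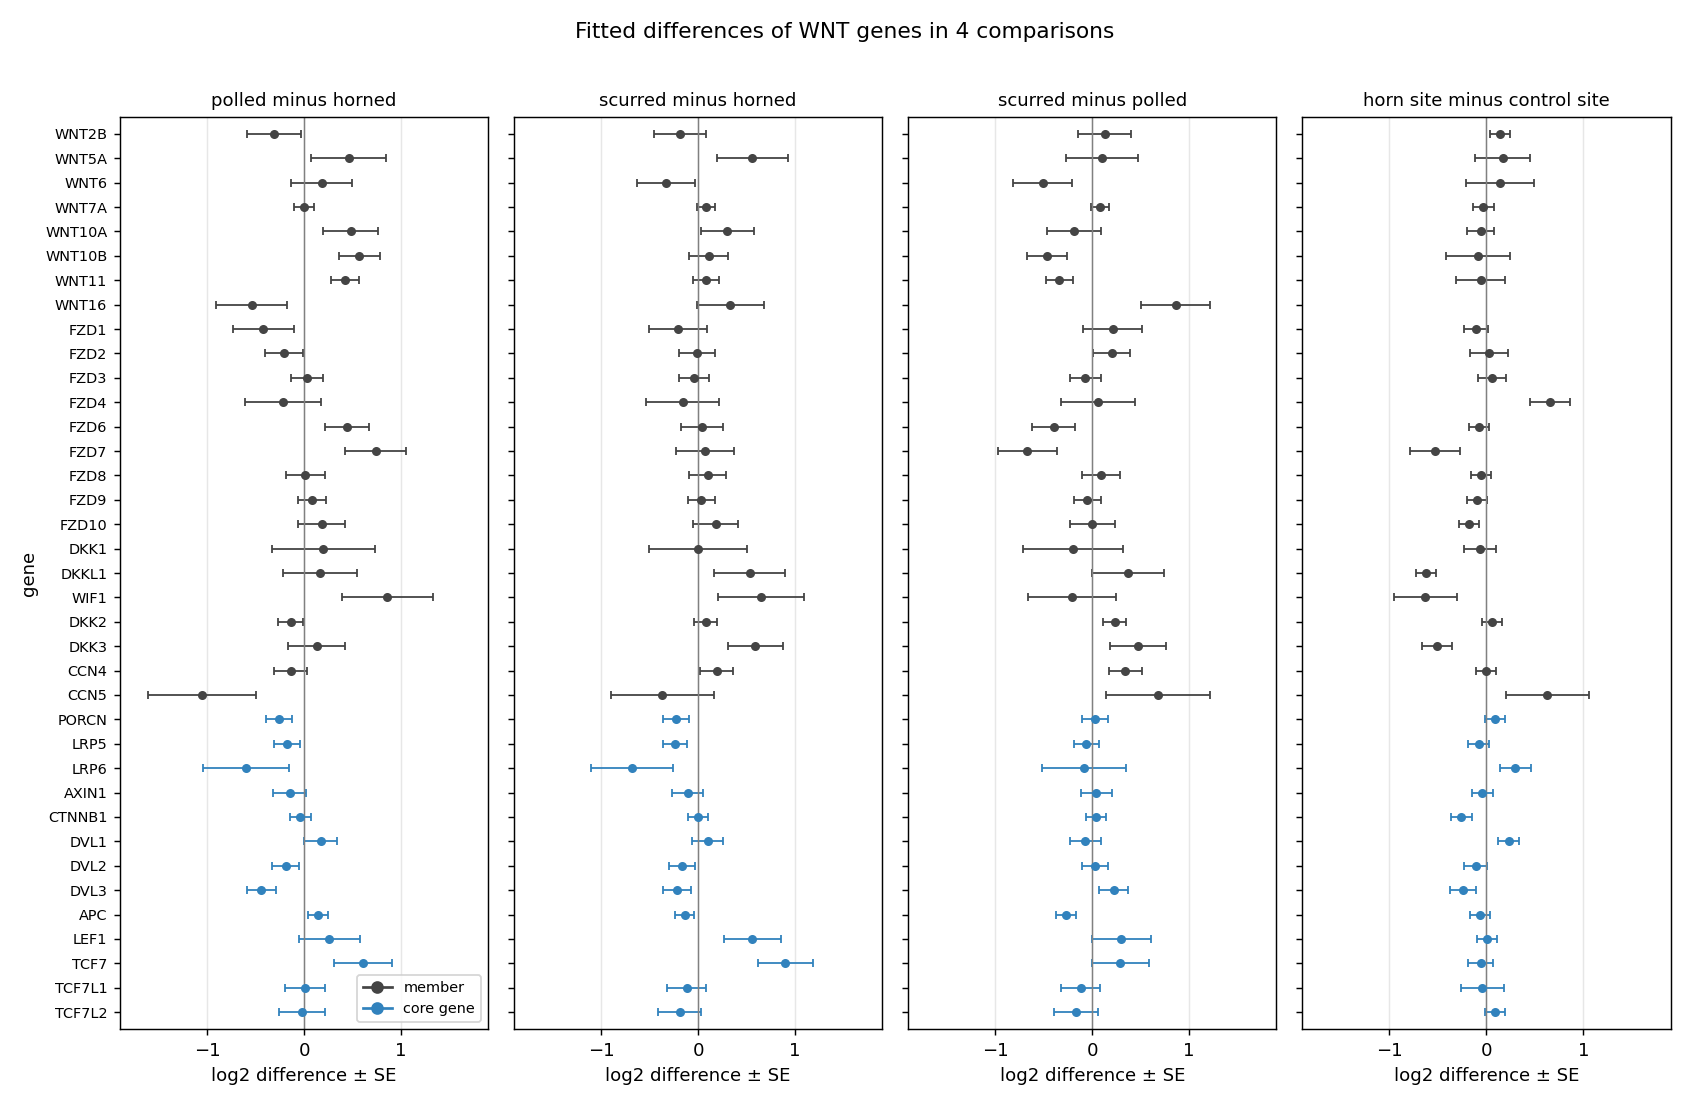
Fitted log2 difference (horizontal axes) with its standard error in 4 comparisons, for 24 members (dark) and 13 core genes (blue) tested between horn types. WNT16 has no value at the horn site, and WISP3 and AXIN2, tested only there, are not drawn. No value passed the threshold; against horned skin the polled value of WIF1 was 0.86 and that of CCN5 −1.05, and at the horn site FZD4 was at 0.66 and DKKL1 at −0.62.

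Within an animal, the horn site could be set against other skull skin in 2 animals only, each the mean of 2 dye orders, so the test has 1 residual degree of freedom. None of 24 tested members passed, 0 of 24 (limma, adjusted p 0.934 to 1), beside 0% of all 16422 probes. At an unadjusted p under 0.05 were 1 member that was higher at the horn site, beside 2.75% of probes, and 2 that were lower, beside 2.15%, or 4.9% in all. The fitted difference was above 0 for 10 of 24 members and for 47.6% of probes. The median over members was −0.0595, beside −0.00816 over all probes. Both animals agreed in sign for 3 members higher and 8 lower, beside 24% and 26.5% of probes.

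FZD4, a receptor of vessels that also binds norrin, was higher at the horn site, by 0.35 in the polled and 0.97 in the scurred animal, on average 0.66 (SE 0.206, unadjusted p 0.0498, adjusted p 0.934, limma). Endothelial markers (8 of 8 tested) had median differences of 0.02 and 0.88 in the same 2 animals, and their part was not tested. DKKL1 was lower by a like amount in both, −0.59 and −0.65 (mean −0.62, SE 0.103, unadjusted p 0.00935, adjusted p 0.934). DKK3 was at −0.29 and −0.72 (mean −0.51, SE 0.159, unadjusted p 0.0498, adjusted p 0.934), while its second, dimmer probe gave −0.13 and −0.07 as the lowest and highest value. With median centring FZD4 was at 0.28 and DKK3 at −0.86.

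FZD7 was lower in both animals, at −0.12 and −0.94 (mean −0.53, SE 0.257, adjusted p 0.934, limma). Its second probe was at −0.37 and −0.35 as lowest and highest (mean −0.36, SE 0.102, unadjusted p 0.0392). WIF1 was at −0.10 and −1.17 (mean −0.63, SE 0.325) and FZD10, a receptor with few known ligands, at −0.15 and −0.21 (mean −0.18, SE 0.104). CCN5 split, at −0.08 in the polled and 1.35 in the scurred animal, where skeletal muscle markers were at 3.81 and dermal fibroblast markers at 0.49. WNT2B was at 0.14 and 0.15 (mean 0.14, SE 0.102, adjusted p 0.957).

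Of the follicle ligands, WNT10B was at 0.45 in the polled and −0.63 in the scurred animal (mean −0.09, SE 0.329), beside hair markers at 0.04 and −1.19, and WNT10A was at 0.09 and −0.22 (mean −0.06, SE 0.137). WNT5A was at 0.63 and −0.29 (mean 0.17, SE 0.285) and WNT11 at 0.34 and −0.45 (mean −0.06, SE 0.25). WNT16 was above background in 1 of 4 site RNAs and was not tested. DKK1 was at −0.07 (SE 0.165) and DKK2 at 0.06 (SE 0.103). CTNNB1 was lower in both, at −0.32 and −0.20 (mean −0.26, SE 0.107, unadjusted p 0.0941, adjusted p 0.934, limma). LRP6 was at 0.30 (SE 0.157), LRP5 at −0.08 (SE 0.108), AXIN1 and AXIN2 at −0.04 each (SE 0.106 and 0.102), APC at −0.07 (SE 0.103) and PORCN at 0.09 (SE 0.106). LEF1 was at 0.01, TCF7 at −0.06, TCF7L1 at −0.04 and TCF7L2 at 0.09.

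Beyond these genes, 90 further genes of the pathway were on the array and 84 were tested between horn types. In polled against horned skin 0 passed (limma, adjusted p 0.379 to 1), 43 lay above 0 and 41 below, and 3 higher and 5 lower had an unadjusted p under 0.05, beside 9.17% of probes in either direction. TNFRSF19, a WNT-regulated receptor of hair follicles, had the lowest p. It was at 0.97, 0.80, 0.72 and 0.69 in polled animals, a fit of 0.77 (SE 0.118, unadjusted p 0.000328, adjusted p 0.379). In scurred animals it was at 0.63, 0.65, 0.27 and 0.58, a fit of 0.54 (SE 0.112, unadjusted p 0.00207, adjusted p 1). All 8 animals were thus above the horned animal of their chip. These 8 differences rest on only 3 horned animals, so they are not independent. Of all probes, 14% were higher in every polled animal and 8.49% in every scurred one. TNFRSF19 was also picked for its low p among the 84 genes.

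The other 4 genes of lowest p in polled skin are receptors, modulators and polarity genes. PRICKLE2, of planar polarity, was at −0.68 (SE 0.137, unadjusted p 0.00169, adjusted p 0.423, limma) and lower in 4 of 4. IGFBP4, which binds growth factors and can block WNT receptors, was at −1.39 (SE 0.351, adjusted p 0.466), from −1.82 to −0.93. LGR4, a receptor for R-spondins, which strengthen WNT signals, was at 1.12 (SE 0.3, adjusted p 0.472), with −0.22 in polled 1 and 1.65, 1.26 and 1.58 in the other polled animals. ROR2, a co-receptor for WNT5A, was at −0.91 (SE 0.263, adjusted p 0.489), from −1.21 to −0.68, and at −0.43 without chip 2.

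Scurred against horned skin had 4 further pathway genes higher, beside 1.56% of probes, and 1 lower, beside 2.2%, at an unadjusted p under 0.05, and 0 of 84 passed (limma). Besides TNFRSF19 these were FOSL1, an AP-1 factor, at 0.85 (SE 0.276), SNAI2, a factor of cell migration, at 0.70 (SE 0.271), CTNNBIP1, which keeps beta-catenin from TCF factors, at 1.16 (SE 0.465), and, on the lower side, IGFBP4 at −0.84 (SE 0.334). Without scurred animal 1, SNAI2 was at 0.45, CTNNBIP1 at 0.67 and IGFBP4 at −0.51, and without chip 1 FOSL1 was at 0.47. In scurred against polled skin 5 were higher, beside 2.93% of probes, and 2 lower, beside 3.15%. PRICKLE2 was at 0.50 (SE 0.133), LGR4 at −0.92 (SE 0.291), ROR2 at 0.76 (SE 0.255), TNKS, which marks AXIN for removal, at 0.45 (SE 0.155) and FOSL1 at 0.74 (SE 0.282), with adjusted p between 0.784 and 0.788. Without chip 2, ROR2 was at 0.11, and without polled animal 2 FOSL1 was at 0.46. At the horn site 0 were higher, beside 2.75% of probes, and 3 lower, beside 2.15%, with NFATC1, a calcium-branch factor, at −0.63 (SE 0.109), and the target genes MYC at −0.49 (SE 0.131) and JUN at −0.41 (SE 0.11). FOSL1 was at −0.68 (SE 0.22) there and LGR6, another R-spondin receptor, at 0.36 (SE 0.134), each with an adjusted p of 0.934.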

How the data were processed

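The deposited scanner files hold spot brightness as an intensity in 2 dyes, made with Agilent Feature Extraction 9.5.1 per the submitters' processing notes. The deposited matrix of values holds log10 ratios, per the file headers' definition of a log ratio. Its columns had a slope of 1 (14) or −1 (6) against red over green in the scanner files. Background was corrected with normexp (offset 50), and each array was normalized by loess, in limma 3.58.1 (R 4.3.3, with the package data.table, version 1.17.8). Flagged spots were left out and duplicates averaged. Arrays were reduced to 1 value per animal with a dye coefficient, then fitted with block, horn type and sex (5 residual degrees of freedom). Levels came from loess and Aquantile channels. The block was checked on them. Deviations of polled and scurred animals on the same chip correlated at 0.237, 0.286, 0.423 and −0.0828, beside −0.344 to 0.382 for different chips. These ranges overlap, and the pairing follows from the arrays, which join RNAs of 1 chip. The fit was also run on simulated data with known differences, drawn with no effect of sex or chip. The simulated site values held no spread between animals. The run therefore cannot show how the fit handles such effects or that spread.

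Symbols, found for 16359 of 21475 probes, came from a RefSeq list of genes (ARS-UCD2.0). Full statistics are given for the 8 members of lowest p per comparison, up to 5 further pathway genes, and a set list of core genes. Members, gene lists and this rule were chosen with earlier results of these data known. Alternatives changed the signals, centring, filter, probe, sex term and block, and left out each chip and animal. Each animal gave 1 biopsy RNA per site, as far as the labels tell, so the p-values measure the spread between animals, whose number limits the precision. Log2 ratios of red over green were computed from the deposited intensities.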

Additional observations from a re-analysis of the deposited data

Results flagged for a closer look

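In the 4 polled or 4 scurred animals of a comparison, 6 of 74 gene and group pairs held 1 animal far from the other 3, by the gap to its neighbour over the whole range, where chance alone picks about 1 in 20. WNT10A stood at 0.96 in polled animal 2 against 0.15 to 0.26 in the others. WNT11 stood at 0.01 in polled animal 1 against 0.50 to 0.58. DKK2 stood at −0.53 in polled animal 1 against −0.06 to −0.03, and AXIN1 at −0.66 in the same animal against −0.04 to 0.07. WNT10B stood at 1.3 in scurred animal 4 against −0.10 to 0.06, and FZD8, a frizzled receptor, at 0.92 in that animal against −0.09 to 0.00.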

How the results depend on the processing

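No member was called in any of the 4 comparisons under any alternative run. The lowest adjusted p over alternatives among the named members was 0.22 for polled minus horned, 0.615 for scurred minus horned, 0.478 for scurred minus polled and 0.539 for the site. With no replicate block the counts stayed at 0, and the medians over members were 0.0794, 0.0722 and 0.0586 in the 3 horn type comparisons. For the site no paired alternative exists, since both samples come from 1 animal. Median centring shifted the median of all probes at the site to −0.121. The median over members for scurred minus polled was 0.135 with no sex term, and it ran from −0.134 (without polled animal 2) to 0.0975 when single chips or animals were left out, below 0 also without chip 2 (−0.1), scurred animal 2 (−0.0106) and scurred animal 4 (−0.00648). For polled minus horned it ran from −0.0127 (without horned animal 2) to 0.122.

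The values that crossed 0 include the site value of CCN5, FZD6 in both comparisons with polled skin, and DKK3 in scurred minus polled, and the cause was not tested. With median centring the site values were 0.03 for APC, 0.21 for AXIN2, −0.06 for LGR6, −0.22 for PORCN and 0.10 for WNT10A, and TCF7L1 in polled minus horned was −0.07, DKK2 in scurred minus horned −0.01 and AXIN1 in scurred minus polled −0.02. With processed signals, as with the deposited table, LEF1 at the site was −0.01 and TCF7L1 in polled minus horned −0.04. Second probes gave −0.03 for WNT5A at the site, 0.01 for PORCN in scurred minus horned and −0.07 for DKK3 in scurred minus polled. With no sex term TCF7L1 in polled minus horned was −0.08 and WIF1 in scurred minus polled 0.21. With no replicate block DKK2 in scurred minus horned was −0.16, and in scurred minus polled AXIN1 was −0.07, PORCN −0.08 and WIF1 0.11.

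When single chips or animals were left out, polled minus horned ran from −0.02 to 0.19 for APC, −0.33 to 0.06 for AXIN1, −0.26 to 0.08 for CTNNB1, −0.77 to 1.31 for DKK1, −0.14 to 0.38 for DKK3, −0.03 to 0.75 for FZD6, −0.05 to 0.47 for LEF1, −0.16 to 0.10 for TCF7L1 and −0.29 to 0.12 for TCF7L2. Scurred minus horned ran from −0.26 to 0.10 for AXIN1, −0.23 to 0.08 for TCF7L1, −0.37 to 0.05 for TCF7L2, −0.04 to 0.23 for WNT10B and −0.04 to 0.59 for WNT16. Scurred minus polled ran from −0.30 to 0.12 for AXIN1, −0.05 to 0.48 for CCN4, −0.16 to 0.18 for CTNNB1, −1.99 to 0.10 for DKK1, −0.59 to 0.31 for FZD6, −0.08 to 0.62 for LEF1, −0.25 to 0.04 for LRP5, −0.45 to 0.37 for LRP6, −0.12 to 0.11 for PORCN, −0.23 to 0.06 for TCF7L1, −0.45 to 0.03 for TCF7L2, −1.38 to 0.02 for WIF1, −0.45 to 0.29 for WNT10A and −0.22 to 0.69 for WNT5A. With 1 of the 2 site animals left out, a value with no test, the site ran from −0.10 to 0.01 for AXIN1, −0.08 to 1.35 for CCN5, −0.29 to 0.16 for DKK1, −0.20 to 0.08 for TCF7, −0.39 to 0.30 for TCF7L1, −0.22 to 0.09 for WNT10A, −0.63 to 0.45 for WNT10B and −0.29 to 0.63 for WNT5A.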
